A study of Mus musculus with 105 samples.

Results

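Oas1c, Oas1d, Oas1e, Oas1h, Oog1, Oog2, Oog3 and Oog4 are 8 oocyte genes of 2 families, and all 8 were found by symbol among the 20756 genes of both FPKM tables and the 6443 genes with a tail length. The data come from mouse oocytes at metaphase II (MII), the stage at which the egg waits for fertilisation, and from full-grown oocytes (FGO) before maturation. Ribosome footprints (Ribo-seq, the fragments of mRNA that a ribosome shields from RNase) were measured in 20 single wild-type MII oocytes and 18 single wild-type FGO. Footprints were also measured in MII oocytes of Btg4 KO and Btg4 Het females (3 and 3 libraries), as was polyadenylated mRNA by Smart-seq2 (2 and 2 libraries). Poly(A) tail lengths, read with a PacBio Sequel II, came from 2 Btg4 KO, 1 Btg4 Het and 1 wild-type MII library and 1 wild-type FGO library. Per the labels, the oocytes came from C57BL/6 females that were 8 or 5 weeks old and were injected with PMSG (5 IU) and hCG (5 IU). The same ages and doses are listed for the FGO and MII libraries, and which of them applied to each stage is not given here. The labels give the genotype only as Het or KO, and how many oocytes each Btg4 or tail library pooled, which animals they came from and which part of Btg4 is removed are not stated. The p-values here therefore reflect how far the deposited libraries of a group lie apart, and that may be technical variation. The FGO of the tail library carry the label SN and the single FGO do not, so they may differ in kind. Of the 105 samples described, 53 had values here and 52 were not analysed here.

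Oas1 genes belong to the oligoadenylate synthetase family, whose active members make short adenylate chains when they bind double-stranded RNA, as part of the antiviral response. The mouse carries a cluster of Oas1 copies in place of the single human OAS1, and Oas1d, Oas1c, Oas1e and Oas1h are known from ovary and oocytes; the protein of Oas1d has no synthetase activity of its own and can bind and inhibit that of Oas1a. Oog genes (oogenesins) encode leucine-rich repeat proteins of the PRAME family that are made in growing oocytes. A maturing oocyte does not transcribe, so the use of such messages is set by their poly(A) tails: cytoplasmic polyadenylation brings stored mRNAs to ribosomes, and deadenylation by CCR4-NOT, which BTG4 recruits, removes messages that are no longer needed. The comparisons below ask which members of each family were occupied by ribosomes at each stage, and how their mRNA, footprints and tails differed when Btg4 was lost.

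In the RefSeq annotation (GRCm38.p6) the 4 Oas1 genes lie in 1 cluster on chromosome 5, where Oas1e and Oas1c are neighbours, Oas1h follows Oas1f, and Oas1d lies between Oas1a and Rph3a. Oog3 and Oog2 are neighbours on chromosome 4 among other PRAME-like genes, Oog4 lies elsewhere on chromosome 4, and Oog1 is on chromosome 12. The files use another build (mm9), so these places describe neighbours only. Within such clusters, reads of similar copies can be split between genes, and the sources used here do not state the counting rule for them, so the values of each copy carry that uncertainty. Promoter sequence was given for 6 of the 8 genes. Each window below runs from 90 bases before to 10 bases after the annotated start in GRCm38.p6, 5′ to 3′ on the gene's strand, and is shown because it lets the members of each family be set side by side. In the Oog windows the capitals mark ACAAAGGGA, the E-box CAGCTG and TATATA.
Oog1, chr12:87602575-87602674 (+): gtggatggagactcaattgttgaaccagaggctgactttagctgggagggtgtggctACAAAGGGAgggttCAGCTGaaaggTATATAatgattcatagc
Oog2, chr4:144190627-144190726 (+): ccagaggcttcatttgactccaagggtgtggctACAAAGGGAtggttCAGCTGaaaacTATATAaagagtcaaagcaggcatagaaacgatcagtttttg
Oog3, chr4:144162642-144162741 (-): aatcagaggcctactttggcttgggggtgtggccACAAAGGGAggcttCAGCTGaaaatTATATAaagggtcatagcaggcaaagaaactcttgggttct
Oog4, chr4:143450315-143450414 (-): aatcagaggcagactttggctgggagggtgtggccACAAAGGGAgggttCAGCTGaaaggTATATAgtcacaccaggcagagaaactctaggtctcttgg
In the 2 Oas1 windows the capitals mark CAGCTG and the octamer ATTTGCAT, which in Oas1c stands on the other strand and is read there as ATGCAAAT.
Oas1c, chr5:120812505-120812604 (-): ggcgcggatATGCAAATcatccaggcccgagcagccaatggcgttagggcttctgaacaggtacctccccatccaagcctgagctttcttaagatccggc
Oas1h, chr5:120861332-120861431 (+): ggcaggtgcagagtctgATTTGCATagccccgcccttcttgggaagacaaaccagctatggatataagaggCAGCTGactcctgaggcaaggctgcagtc

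The 4 Oog promoters shared the same 3 blocks in the same order. Over the full 300 bases (250 before to 50 after the start) the 6 pairs of Oog promoters were 64.6% to 76.7% identical by global alignment, whereas the Oas1c and Oas1h promoters were 45.9% identical, a value inside the 44.2% to 47.9% of the 8 pairs that cross families. E-boxes are known sites of basic helix-loop-helix factors, among them FIGLA of the oocyte. CAGCTG was found in 5 of the 6 members' promoters and in 16.3% of all 32851 promoters, searched on both strands. TATATA stood in all 4 Oog promoters and in 5.67% of all promoters, and ACAAAGGGA in all 4 and in 0.493%. The E-box began 43, 42 and 41 bases before the start in Oog2, Oog3 and Oog4 and 19 bases before it in Oog1, whose annotated start lies closer to the shared blocks. All 3 strings occurred together in 10 promoters (0.0304%), which were those of the 4 Oog genes, of the PRAME-like genes Gm13084 and C87977, and of Fam71a, Gm2042, Mid1 and Nts. The octamer ATTTGCAT was found in both Oas1 promoters and in 1.74% of all promoters. TAATTG, a core of the sites of the oocyte factor NOBOX, was found in Oog3 and Oog4 and in 8.0% of promoters, and the general E-box CANNTG, which includes CAGCTG, in 5 of 6 and in 72.3%. These strings were chosen after the sequences were seen, and each match is a description of letters only. In the footprints below, Oog3 and Oog1 differed from Oog2 and Oog4 in the direction of the stage difference. Any link of these promoter strings to the measurements was not tested.

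The sum of FPKM per library, which sets the scale of every value, ran from 144559 to 598538 in single MII oocytes and from 76465 to 677515 in single FGO, and relative read depth ran from 0.224 to 0.877 in MII against 0.557 to 2.4 in FGO. MII oocytes numbered 2 and 4 stood apart from the other 18 by high Oas1c, Oas1h, Oog2 and Oog4 footprints. Btg4 footprints were 1148, 970.6 and 906.7 FPKM in the KO libraries against 7009, 6346 and 6134 FPKM in the Het libraries, and fell by 2.69 in log2 units (SE 0.23, limma adjusted p = 0.00654), and Btg4 mRNA was 1754 and 2345 FPKM in KO against 3293 and 4774 FPKM in Het (log2 -0.97, limma adjusted p = 0.0889). The values went with the genotype labels, but reads outside the removed part of the gene would check nothing. Both footprint libraries numbered 2, KO and Het, also stood apart: Oog1 was listed at 0 in both. Oog1 is 1 of the genes whose rows are repeated in the Btg4 table, and of 6 such genes at 10 FPKM or more in the other 4 footprint libraries all 6 were at 0 in both libraries numbered 2, against 117 of 2659 genes whose names were not repeated. All 8 oocyte markers (Zp1, Zp2, Zp3, Gdf9, Bmp15, Ddx4, Npm2 and Nlrp5) were above 0 in every group, with summed medians of 2119 FPKM in single MII oocytes and 4769 FPKM in single FGO. The 15 follicle cell markers summed to 70.65 to 227.3 FPKM in single MII oocytes, where 4 were at 0 in every oocyte and Serpine2 alone averaged 120.1 FPKM. In single FGO they summed to 1.044 to 114.8 FPKM, and 1 was at 0 in every oocyte. Of the 8 with a mean of at least 1 FPKM at either stage, 2 were at least 2-fold higher in MII and 5 at least 2-fold lower. These shares stand beside 25.8% and 31.8% of all genes compared. Blood and immune markers summed to 0 to 91.86 FPKM in single MII oocytes and 0 to 527.5 FPKM in single FGO, and the part of these cells in the stage differences was not tested.

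Within the Oog family, ribosome occupancy of Oog3 and Oog1 was higher in MII oocytes than in FGO, while that of Oog2 and Oog4 was lower. Values are footprint FPKM, which scale reads to gene length and library size, and the difference is log2 of the mean FPKM + 1 in MII over FGO. Each stage counts as 1 sample, because the labels name no animals, so none of these differences was tested. Oog3 footprints ran from 325.4 to 2031 FPKM with a median of 897.8 FPKM in MII oocytes, against 13.31 to 197.2 FPKM with a median of 47.25 FPKM in FGO. Every MII oocyte was above every FGO, and the means of 838.9 ± 433.0 FPKM (SD, n = 20) and 63.35 ± 50.43 FPKM (SD, n = 18) gave a log2 difference of 3.71. Such full separation upwards was seen in 1.91% of the 10068 genes compared. Oog1 footprints had a lowest, median and highest value of 25.73, 88.62 and 187.5 FPKM in MII oocytes, against 4.974, 22.61 and 54.24 FPKM in FGO. Here the stages overlapped: 16 of 20 MII oocytes lay above the highest FGO, and the log2 difference was 1.81.

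Oog2 and Oog4 showed the opposite difference. In MII oocytes Oog2 ran from 2.971 to 131.5 FPKM with a median of 19.16 FPKM, against 11.83 to 259.0 FPKM with a median of 91.73 FPKM in FGO, a log2 difference of -1.64. Oog4 ran from 1.803 to 115.8 FPKM with a median of 18.89 FPKM in MII oocytes, against 10.27 to 433.9 FPKM with a median of 79.89 FPKM in FGO, a log2 difference of -1.78. The 2 highest MII values of both genes were those of oocytes 2 and 4, and without these 2 oocytes the differences were -2.17 for Oog2 and -2.26 for Oog4. Over the 8 genes, 3 were at least 2-fold higher in MII and 4 at least 2-fold lower (log2 differences past 1), against 25.8% and 31.8% of the 10068 genes compared, so these shares are not far from the background. The median log2 difference was -1.02 over the 8 members and -0.26 over all genes compared.

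The Oas1 family divided in the same manner, with Oas1d alone higher in MII. Oas1d footprints ran from 521.8 to 2328 FPKM with a median of 1339 FPKM in MII oocytes, against 39.92 to 699.4 FPKM with a median of 298.2 FPKM in FGO. Of the 20 MII oocytes 16 lay above the highest FGO, and the means of 1253 ± 535.2 FPKM (SD, n = 20) and 302.8 ± 173.0 FPKM (SD, n = 18) gave a log2 difference of 2.05. Oas1c, its relative in the same cluster, ran from 24.24 to 379.6 FPKM with a median of 93.37 FPKM in MII oocytes, against 66.86 to 719.9 FPKM with a median of 252.5 FPKM in FGO (log2 -1.34). Oas1h ran from 9.23 to 266.9 FPKM with a median of 36.46 FPKM in MII oocytes, against 38.65 to 528.3 FPKM with a median of 121.8 FPKM in FGO (log2 -1.51). Oas1e differed least, with 60.42 to 614.5 FPKM and a median of 221.3 FPKM in MII oocytes, against 68.84 to 1104 FPKM and a median of 372.9 FPKM in FGO (log2 -0.70).

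Oas1h was the most uneven member among MII oocytes, with a coefficient of variation of 111% there. Its values were 9.23 to 49.2 FPKM in 15 MII oocytes and 97.72, 104.5, 115.6, 140.3 and 266.9 FPKM in oocytes 13, 15, 19, 2 and 4. The first 3 of these were not high for Oog2, which stood at 8.543, 5.415 and 11.59 FPKM in oocytes 13, 15 and 19. With oocytes 2 and 4 left out the log2 difference of Oas1h was -1.99, and that of Oas1c was -1.65. When the oocytes that list a hemoglobin gene were left out, Oog3 was at 3.95, Oas1d at 2.25, Oog1 at 2.13 and Oas1e at -0.52, and all 8 genes kept their direction.

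**Figure D1:**
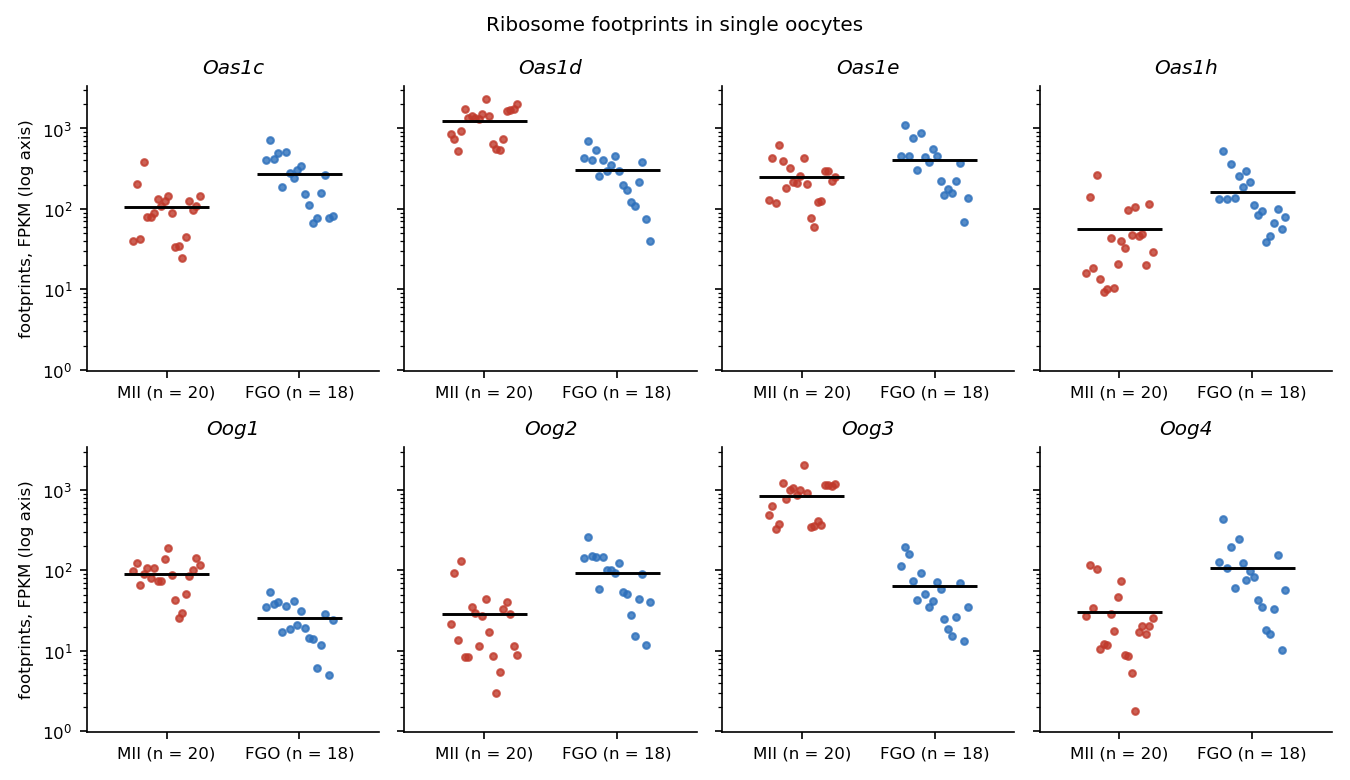
Footprint FPKM (log axis) of the 8 genes, 1 point per single oocyte, with MII oocytes (n = 20) left of FGO (n = 18) and the mean as a bar. Oog3 separates fully (325.4 to 2031 FPKM in MII oocytes, 13.31 to 197.2 FPKM in FGO), Oas1d and Oog1 are also higher in MII, and the other 5 genes are lower with overlapping ranges.

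Rescaling by the sum of FPKM in the library lowered the spread among MII oocytes for some members and hardly for others. After each oocyte was rescaled to a sum of 1000000 FPKM, an alternative chosen after the data were seen, the coefficient of variation of Oog3 in MII was 24.6% against 51.6% as deposited, and that of Oas1d was 21.5% against 42.7%. Oas1h stayed uneven, at 109% rescaled against 111% as deposited, as did Oog2 (97.0% against 109%) and Oog4 (87.9% against 105%). On this scale 19 of 20 MII oocytes lay above every FGO for Oog1, 18 of 20 lay below every FGO for Oas1c and 17 of 20 for Oog2. The log2 differences became 3.40 for Oog3, 1.61 for Oas1d, 1.38 for Oog1, -1.11 for Oas1e, -1.57 for Oas1h, -1.75 for Oas1c, -2.01 for Oog2 and -2.02 for Oog4, where the median of all genes compared was -0.61.

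Ratios between 2 genes of the same oocyte are free of the library's sum. Oog3 over Oog2 had a median log2 ratio of 5.34 in MII oocytes (1.54 to 7.18) and of -0.50 in FGO (-1.51 to 0.17), and Oog3 over Oog4 one of 5.57 in MII (1.88 to 7.84) and -0.48 in FGO (-1.44 to 0.58). The family member with most footprints was thus a different one at each stage, although Oog3 and Oog2 are neighbours. Oog3 over Oog1, both higher in MII, was at 3.32 in MII (2.08 to 3.82) and 1.28 in FGO (-0.22 to 2.07). Among the Oas1 genes, Oas1d over Oas1c was at 4.01 in MII (1.27 to 4.48) and 0.22 in FGO (-1.04 to 0.89), and Oas1d over Oas1e at 2.57 in MII (0.58 to 3.21) and -0.26 in FGO (-1.76 to 0.20). For these 5 ratios every MII oocyte lay above every FGO, oocytes 2 and 4 included, and those 2 oocytes gave the lowest MII values of 4 of the 5. Oas1d over Oas1h, Oas1e over Oas1c and Oog4 over Oog2 overlapped between stages; the last had medians of 0.32 in MII and -0.08 in FGO.

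**Figure D2:**
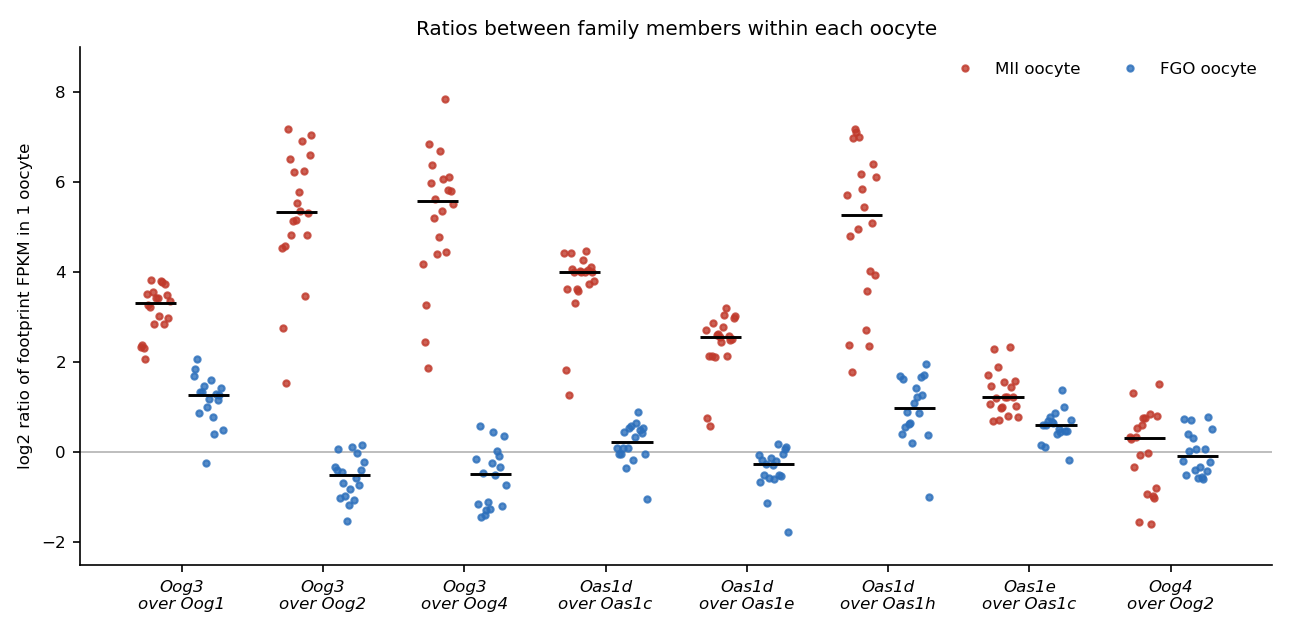
Log2 ratio of footprint FPKM between 2 family members in the same oocyte, 1 point per oocyte, MII left of FGO, with the median as a bar. The first 5 ratios separate the stages (Oog3 over Oog2: medians of 5.34 in MII and -0.50 in FGO), while Oog4 over Oog2 stays near 0 in both.

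The order of levels, in FPKM and so per length, differed between stages. In MII oocytes it ran Oas1d, Oog3, Oas1e, Oas1c, Oog1, Oas1h, Oog4, Oog2, with Oas1d ranked 37 and Oog3 ranked 56 among 13986 genes above 0. Oas1d exceeded Oog3 in 20 of 20 MII oocytes and Oog3 exceeded Oas1e in 19 of 20. Oas1c and Oog1 (9 of 20 oocytes), Oas1h and Oog4 (13 of 20) and Oog4 and Oog2 (11 of 20) could not be placed in order beyond the spread between oocytes. In FGO the order ran Oas1e, Oas1d, Oas1c, Oas1h, Oog4, Oog2, Oog3, Oog1, with Oas1e ranked 80 among 17052 genes above 0. Oas1e exceeded Oas1d in 15 of 18 FGO and Oas1d exceeded Oas1c in 12 of 18, whereas Oog4 exceeded Oog2 in 9 of 18. Oog3 and Oog1, the members with fewest footprints in FGO, stood at ranks 546 and 1207 there.

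The genes whose footprints ran most like each member over the 38 oocytes (Pearson r of log2(FPKM + 1) among 3659 genes, as a description; the points share library depth and the stage difference) were Spin1 (r = 0.99), a histone reader of the maternal store, and D6Ertd527e (0.98) for Oog3. They were Bpgm (0.97) and the oocyte linker histone gene H1foo (0.95) for Oas1d, and Gm10436 (0.97) and the splicing factor gene Sf3b1 (0.96) for Oog1. Oas1c ran with Uchl1 (0.94) and the spindle protein gene Tacc3 (0.93), Oas1e with the oocyte F-box genes Fbxw19 (0.91) and Fbxw20 (0.90), and Oas1h with Utp4 (0.84) and Mtx2 (0.83). Oog2 ran with its PRAME-like relative Gm13084 (0.93) and Fbxw21 (0.92), and Oog4 with Gm13084 (0.92) and Uchl1 (0.91). Within MII oocytes alone these r values were 0.69 to 0.97 and within FGO alone 0.75 to 0.98. Over the 28 pairs of members, r had a median of 0.60 in MII and 0.86 in FGO as deposited, and of 0.01 in MII and 0.49 in FGO after rescaling.

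In Btg4 KO MII oocytes the mRNAs of Oas1h, Oog4, Oog2 and Oas1c rose against Het, and those of Oas1d, Oog3, Oas1e and Oog1 did not pass the test. Values are FPKM of polyadenylated RNA, tested on log2(FPKM + 1) with limma over the 8865 genes whose mean reached 1 FPKM. Smart-seq2 starts from the poly(A) tail, and fewer oocytes and less RNA per oocyte cannot be told apart in these libraries. Oas1h measured 380.4 and 642.8 FPKM in KO libraries against 97.97 and 101.5 FPKM in Het libraries, a rise of 2.30 in log2 units (SE 0.34, limma adjusted p = 0.00288). Oog4 measured 372.0 and 583.5 FPKM in KO against 140.5 and 160.0 FPKM in Het, and rose by 1.63 (SE 0.32, adjusted p = 0.0104). Oog2 measured 220.1 and 242.2 FPKM in KO against 72.66 and 88.77 FPKM in Het, and rose by 1.51 (SE 0.29, adjusted p = 0.00902). For Oas1c the values were 450.8 and 400.5 FPKM in KO against 185.1 and 159.7 FPKM in Het, a rise of 1.30 (SE 0.29, adjusted p = 0.0154). In each of these 4 genes both KO libraries lay above both Het libraries. The share of all genes with KO and Het mRNA libraries so separated was not counted, so here and below this only describes the values. Calls of higher mRNA in KO covered 18.9% of all genes tested and calls of lower mRNA 0.62%.

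The same test called none of the other 4 genes, but they were not alike. Before adjustment Oas1d (limma p = 0.017) and Oog1 (p = 0.0277) were under 0.05, with 95% confidence intervals of -1.67 to -0.22 and 0.12 to 1.55. Both passed the adjusted threshold when replicate number was added to the fit. Oog3 (p = 0.192) and Oas1e (p = 0.997) passed in neither way. Oas1d was the lowest relative to Het, with 1402 and 1009 FPKM in KO against 2259 and 2320 FPKM in Het (log2 -0.94, SE 0.32, adjusted p = 0.0739), and its KO libraries lay below both Het libraries. Oog3 had 1841 and 2338 FPKM in KO against 2303 and 3795 FPKM in Het (log2 -0.51, SE 0.36, adjusted p = 0.346), with overlapping groups. Oas1e had 787.3 and 778.8 FPKM in KO against 661.2 and 928.9 FPKM in Het, with a 95% confidence interval of -0.71 to 0.71 on the log2 scale. Oog1 had 982.9 and 673.8 FPKM in KO against 443.8 and 467.4 FPKM in Het (log2 0.84, SE 0.31, adjusted p = 0.101), with both KO libraries above both Het libraries.

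The count of 4 depended on the scaling, on the filter on low values, on which KO library was left out and on replicate number. With replicate number in the fit, 5 members rose, Oog1 being the one added, and 1 fell (Oas1d). With no filter 1 member passed (Oas1h, limma adjusted p = 0.0477), with Oog2, Oas1c and Oog4 at 0.0509, 0.065 and 0.072. The median log2 difference of all genes tested was 0.14 as deposited and -0.27 after median scaling, the calls over all genes were 96.8% higher as deposited against 54.8% after median scaling, and after median scaling 1 member (Oas1h, limma adjusted p = 0.0339) passed in place of 4, with Oog2, Oog4 and Oas1c at 0.0665, 0.0752 and 0.0916. Relative to the median of all genes, in both scalings, Oas1h stood at 2.16, Oog4 at 1.49, Oog2 at 1.37, Oas1c at 1.16, Oog1 at 0.70, Oas1e at -0.14, Oog3 at -0.65 and Oas1d at -1.08. Without KO replicate 2, 2 members passed (Oog2 and Oas1h), and without KO replicate 1, 3 passed, Oas1c being the one lost. The median over the 8 members was 1.07 as deposited. Follicle cell markers summed to 268.7 and 309.9 FPKM in KO mRNA against 358.2 and 442 FPKM in Het, with 5 of 15 at 0 in each. Most of these sums was Serpine2, at 257 and 299 FPKM in KO against 342 and 427 FPKM in Het. Of the 3 follicle cell markers tested 1, Krt8, was called higher in KO (limma adjusted p = 0.0497) and 0 lower. Blood and immune markers summed to 2.626 and 19.36 FPKM in KO against 1.43 and 1.994 FPKM in Het. The part of both sets in the mRNA differences was not tested.

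**Figure D3:**
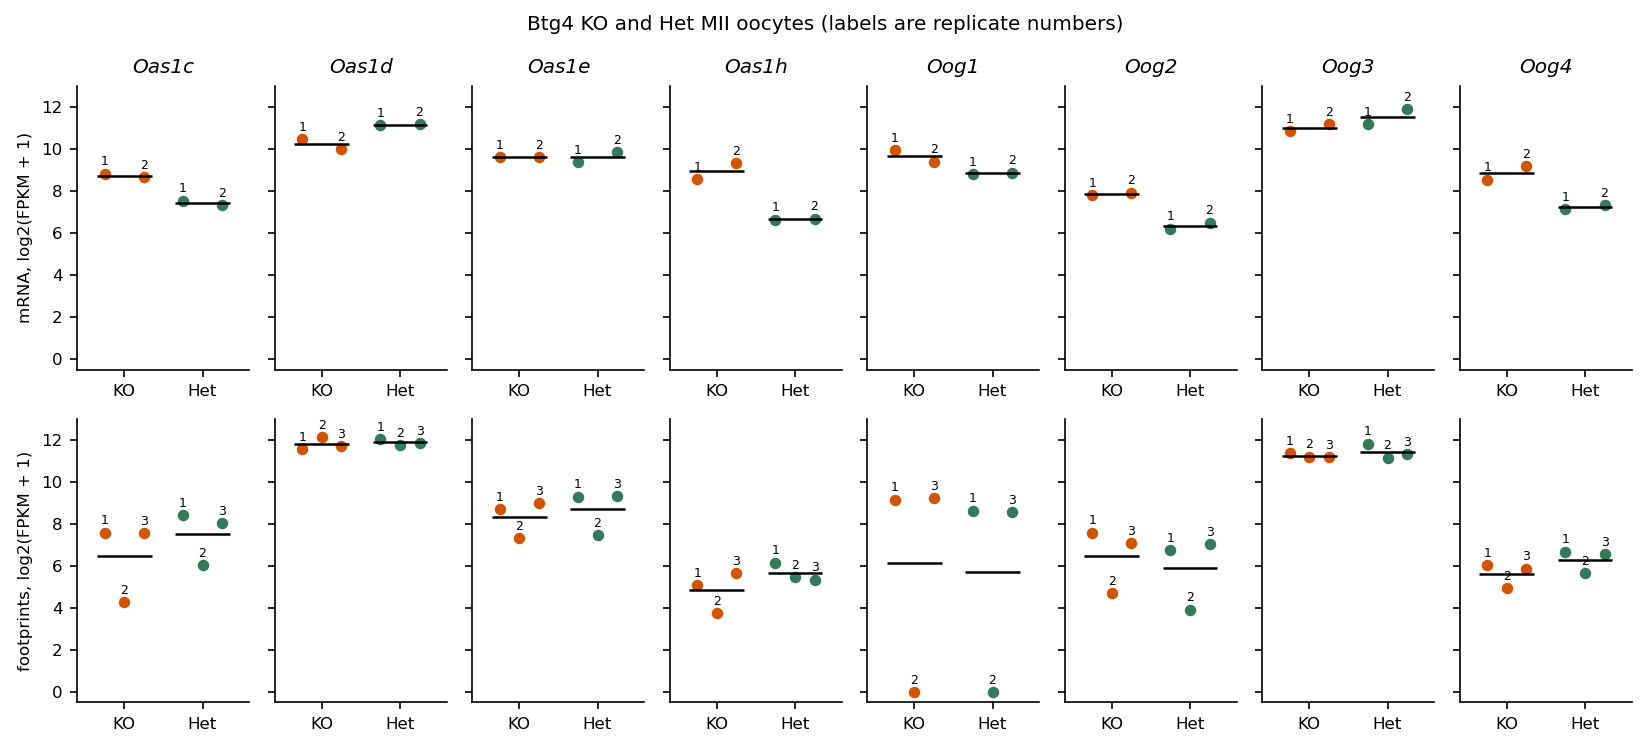
log2(FPKM + 1) of the 8 genes in mRNA (upper row, 2 KO and 2 Het libraries) and footprints (lower row, 3 KO and 3 Het libraries), KO left of Het, 1 point per library with its replicate number and the mean as a bar. In mRNA both KO points lie above both Het points for Oas1c, Oas1h, Oog1, Oog2 and Oog4, while in footprints KO and Het overlap for all 8, and library 2 of both genotypes is the lowest for Oas1c, Oas1e, Oog1, Oog2 and Oog4, with Oog1 at 0.

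None of the 4 genes whose mRNA rose passed the test in footprints. Oas1h footprints were 33.17, 12.52 and 49.21 FPKM in KO libraries against 70.42, 43.19 and 39.69 FPKM in Het libraries (log2 -0.82, 95% confidence interval -2.21 to 0.57). Oog4 footprints were 65.27, 29.68 and 57.53 FPKM in KO against 101.3, 49.33 and 92.41 FPKM in Het (log2 -0.67, -1.81 to 0.47). Oas1c had 190.9, 18.25 and 185.5 FPKM in KO against 343.9, 64.35 and 260.0 FPKM in Het (log2 -1.03, -3.51 to 1.45), with library 2 the lowest of both genotypes. Oog2 had 191.5, 25.0 and 133.1 FPKM in KO against 105.9, 14.13 and 129.5 FPKM in Het (log2 0.56, -1.95 to 3.06). The KO and Het ranges overlapped for all 4. Taken by replicate number, KO was below Het in 3 of 3 pairs for Oas1c and Oog4 and above Het in 3 of 3 pairs for Oog2. Oas1e, whose mRNA did not rise, was also below Het in 3 of 3 pairs, and the share of all genes with such pairs was not counted. With the replicate block the limma adjusted p was 0.187 for Oas1c, 0.3 for Oog4, 0.413 for Oog2 and 0.407 for Oas1h.

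Oas1d and Oog3 carried the most footprints of the 8 genes in both genotypes. Oas1d had 2986, 4454 and 3338 FPKM in KO against 4152, 3447 and 3709 FPKM in Het (log2 -0.09, 95% confidence interval -0.70 to 0.52), and Oog3 had 2626, 2351 and 2294 FPKM in KO against 3598, 2285 and 2563 FPKM in Het (log2 -0.19, -0.82 to 0.44). These intervals are the narrowest of the members and, on the deposited scale, leave out a 2-fold difference in either direction. They come, like all intervals here, from the fit without replicate number. With the replicate block the log2 differences were again -0.09 and -0.19, with limma adjusted p of 0.861 for Oas1d and 0.626 for Oog3, and no interval is given for that fit. After median scaling the differences were -0.53 for Oas1d and -0.64 for Oog3 in log2 units, and no such bound is given on that scale. Oas1e had 415.1, 158.2 and 509.9 FPKM in KO against 628.0, 177.1 and 642.0 FPKM in Het (log2 -0.36, -1.93 to 1.2). Oog1 had 567.1, 0 and 595.5 FPKM in KO against 395.8, 0 and 374.1 FPKM in Het; it is listed at 0 in both libraries numbered 2, and without these 2 libraries its log2 difference was 0.59. In limma 0 of 8 members passed the adjusted threshold in footprints and 0 of 8 had an unadjusted p under 0.05, beside 3.21% of 8526 genes called higher and 0.328% called lower. Those calls over all genes numbered 274 higher and 28 lower, and 0 of either without any 1 of the 3 KO libraries, 82 and 4 without Het replicate 3, and 144 and 10 without Het replicate 2.

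Set against mRNA within a genotype, footprints placed Oas1d highest of the members and Oog4 and Oas1h lowest in both genotypes. The order between them differed, as Oas1c came next to Oas1d in Het but below Oog3, Oog2, Oog1 and Oas1e in KO. The log2 ratio of mean footprint FPKM + 1 over mean mRNA FPKM + 1 was -3.97 for Oas1h in KO and -0.95 in Het, which ranks at percentile 0.952 of 7249 genes in KO and percentile 18.8 of 6564 genes in Het. Oog4 stood at -3.21 in KO (percentile 2.62) and -0.88 in Het (percentile 19.8), and Oas1c at -1.69 in KO (13.5) and 0.37 in Het (49.9). Oas1d stood at 1.57 in KO (percentile 76.4) and 0.72 in Het (59.9), and Oog3 at 0.21 in KO (46.7) and -0.11 in Het (36.9). Oog2 was at -0.98 in KO and 0.04 in Het, Oog1 at -1.09 in KO and -0.83 in Het, and Oas1e at -1.11 in KO and -0.72 in Het. The 2 assays have no common scale, so the ratio only ranks genes within a genotype. These footprint means include the libraries numbered 2, in which Oog1 was listed at 0 and Oas1c was at 18.25 FPKM in KO and 64.35 FPKM in Het. The order of the members without those libraries was not computed.

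The change of this footprint efficiency, tested as a genotype-by-assay interaction in 10 libraries, passed the adjusted threshold for 0 of 8 members, and 3 of 8 had an unadjusted p under 0.05 in limma. Those 3 were Oas1h (log2 -3.12, SE 0.79, adjusted p = 0.102), Oog4 (log2 -2.30, SE 0.65, adjusted p = 0.150) and Oas1d (log2 0.86, SE 0.38, adjusted p = 0.356). Over all 7382 genes 0.853% were called higher and 0.447% lower. Oas1c was at -2.33 with a 95% confidence interval of -5.62 to 0.95, and Oog2 at -0.96 with one of -4.27 to 2.36. The median over the 8 members was -0.70 and over all genes 0.24.

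The longest tails of the 8 genes were those of Oas1d and Oog3 in Het MII oocytes. The Oas1d tail was 89.3 and 81.83 nt in the KO libraries against 208.64 nt in the Het library, and 63.31 nt in wild-type FGO. The Het value was at percentile 99.0 of the 598 genes with a value there, with 6 genes at or above it, itself included. The Oog3 tail was 67.11 and 91.02 nt in KO against 139.77 nt in Het (percentile 92.6), and 48.75 nt in wild-type FGO. Both were longer in Het MII oocytes than in FGO, by 145.3 nt for Oas1d and 91.02 nt for Oog3, where the median difference of 580 genes was 20.4 nt and 23.8% of them were longer by 50 nt or more.

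Oas1d had the largest tail difference of the 5 members with a value in all 3 Btg4 libraries, at -123.1 nt in KO against Het (SE 25.0, 95% confidence interval -202 to -44.3, unadjusted p = 0.0154, limma adjusted p = 0.133). Oog3 was at -60.7 nt (SE 21.4, adjusted p = 0.251). Oog4 had 31.28 and 32.53 nt in KO against 43.38 nt in Het (-11.47 nt, adjusted p = 0.199), Oog1 58.39 and 53.55 nt in KO against 72.32 nt in Het (-16.35 nt, adjusted p = 0.411), and Oas1e 40.27 and 34.83 nt in KO against 36.28 nt in Het (1.27 nt, adjusted p = 0.902). The fit has 1 Het library and 1 residual degree of freedom, so the Het library is assumed to vary like the KO pair. Of the 272 genes with all 3 values 0 (0.0%) were called by limma, 65 had an unadjusted p under 0.05, and the median difference was -9.21 nt; among the members 0 of 5 were called and 2 (Oas1d and Oog4) had an unadjusted p under 0.05.

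Oas1c, Oas1h and Oog2 had tail values in both KO libraries and in FGO only, and all 3 were shorter in KO than in FGO. Oas1c had 22.22 and 19.18 nt in KO libraries against 78.9 nt in FGO, Oas1h 30.29 and 21.73 nt in KO against 56.51 nt in FGO, and Oog2 36.55 and 46.33 nt in KO against 77.42 nt in FGO. Within the KO libraries Oas1c was short, at percentiles 9.46 and 3.04, while Oog2 was mid-range, at percentiles 39.7 and 55.2. With Oog4 (74.3 nt in FGO), these are the 4 genes whose mRNA rose in KO, and their KO mean minus FGO ran from -58.2 nt (Oas1c) to -30.5 nt (Oas1h). Oas1e and Oog1 were below FGO too, at -13.99 and -0.61 nt, while for Oas1d and Oog3 the mean KO tail was longer than in FGO, by 22.25 and 30.31 nt. Over 626 genes the median difference was -15.4 nt and 66.9% were below FGO. A shorter tail in KO than in FGO was thus not particular to the genes whose mRNA rose. In wild-type MII oocytes, of which the library gives 229 genes, Oog1 had 48.08 nt against 56.58 nt in FGO and Oas1e 26.39 nt against 51.54 nt in FGO. The KO and Het libraries differ from the wild-type FGO library in genotype as well as stage. Both KO libraries were set against a single FGO library, and the Het and wild-type MII differences from FGO compare single libraries. The median over the genes of a library was 42.39 and 43.11 nt in KO, 73.44 nt in Het, 47.45 nt in wild-type MII and 54.06 nt in FGO. A gene with no value is one for which the table gives 0.

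**Figure D4:**
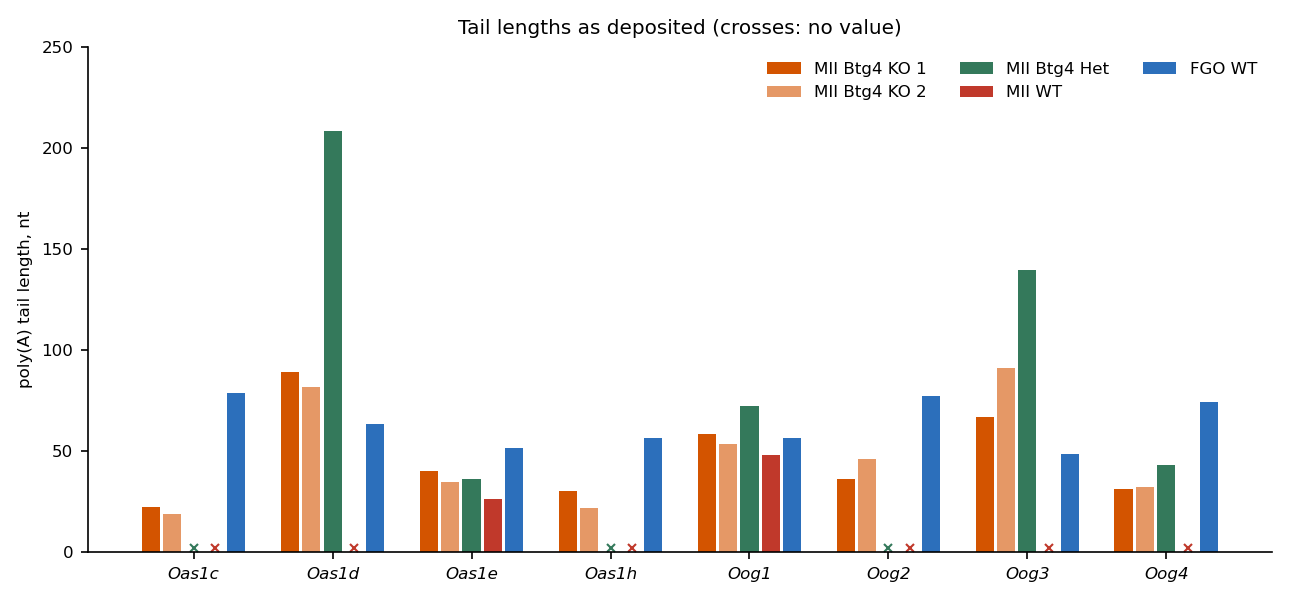
Poly(A) tail length in nt of the 8 genes in the 2 MII Btg4 KO libraries, the MII Btg4 Het library, the MII wild-type library and the FGO wild-type library, 1 bar per library; a cross marks no value. Oas1d (208.64 nt), Oog3 (139.77 nt) and Oog1 (72.32 nt) are longest in Het, whereas Oas1c, Oas1e, Oas1h, Oog2 and Oog4 are longest in FGO. Of these, Oas1c, Oas1h and Oog2 have no Het or wild-type MII value.

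Set side by side, the stage difference of footprints and the genotype difference of mRNA placed 6 of the 8 genes in 2 corners. The 4 genes at log2 -1.34 to -1.78 in MII over FGO footprints were those whose mRNA rose in KO over Het, by 1.30 to 2.30. Oas1d and Oog3, at 2.05 and 3.71 in footprints, were at -0.94 and -0.51 in mRNA, neither past the threshold without replicate number in the fit. Oog1 was in neither corner, at 1.81 in footprints and 0.84 in mRNA, and nor was Oas1e, at -0.70 in footprints with an mRNA interval of -0.71 to 0.71. These 2 comparisons share no library. The share of all genes in these corners was not counted, so whether 6 of 8 is unusual cannot be told. Taken singly, 31.8% of all genes compared were at least 2-fold lower in MII footprints, and 18.9% of those tested were called higher in KO mRNA. After median scaling, or with no filter on low values, only Oas1h of the 4 passed the mRNA test. Of 11 oocyte factors and markers, 9 were at least 2-fold lower in MII footprints and 7 rose in KO mRNA. Among relatives whose mRNA rose, Gm13084 and Pramef20 were lower in MII footprints (log2 -1.98 and -1.65). Oas1f, C87977 and AA792892 rose too but stood at -0.27, 0.22 and 0.25 in footprints, and C130073F10Rik was at 0 in every oocyte. The genes are similar copies within each family and are not independent points, so no correlation is given.

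**Figure D5:**
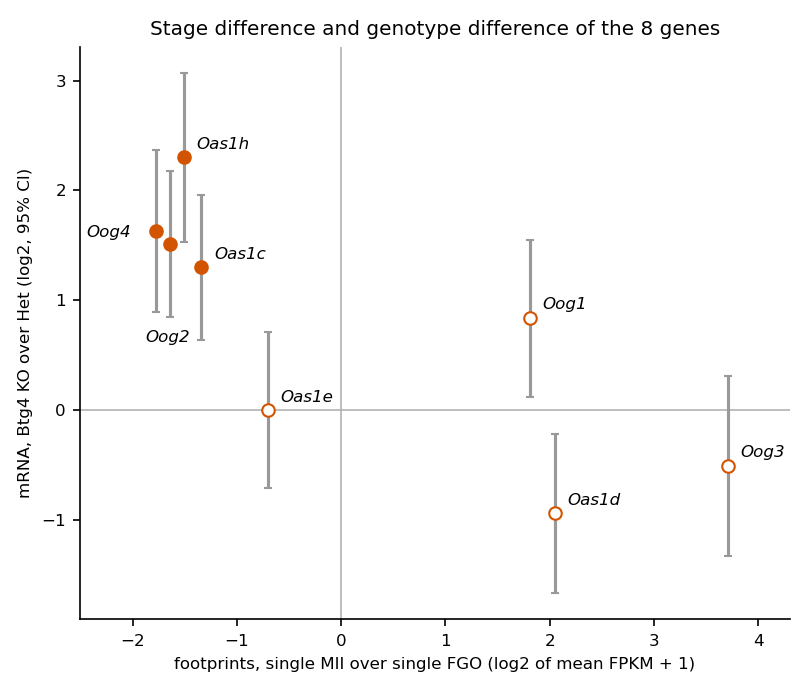
Log2 difference of footprints in single MII oocytes over single FGO (x axis) and log2 difference of mRNA in Btg4 KO over Het MII oocytes with its 95% confidence interval (y axis), 1 point per gene; filled points passed the mRNA test. Oas1h, Oog4, Oog2 and Oas1c lie at the upper left (-1.34 to -1.78 and 1.30 to 2.30), Oas1d and Oog3 at the lower right.

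Relatives outside the 8 genes were counted from fixed lists. Of 11 other Oas family and pathway genes 6 entered the single-oocyte comparison, with 0 at least 2-fold higher in MII and 2 at least 2-fold lower, beside 25.8% and 31.8% of all genes compared. Oas1f, between Oas1c and Oas1h in the cluster, averaged 25.96 ± 11.1 FPKM (SD, n = 20) in MII oocytes and 31.5 ± 18.53 FPKM (SD, n = 18) in FGO. Its mRNA, at 16.7 and 17.3 FPKM in KO against 2.80 and 2.16 FPKM in Het, rose by 2.38 (SE 0.35, limma adjusted p = 0.00295), the only 1 of 4 tested in that list to pass, beside 18.9% of all genes called higher. Oas2 was listed at 0 in all 20 MII oocytes and was above 0 in 8 of 18 FGO, and Oas1a and Oas1g were each above 0 in 6 of 20 MII oocytes, against 12 and 13 of 18 FGO. Such zeros cannot be read as absence, since the broadly used gene Abce1 was also above 0 in only 5 of 20 MII oocytes and 12 of 18 FGO, and read depth was lower in MII. Oas1a and Oas1g are similar copies, so reads may be shared between them. Of 26 genes of double-stranded RNA sensing and the interferon response 10 entered the single-oocyte comparison, 1 at least 2-fold higher and 4 at least 2-fold lower (25.8% and 31.8% of all genes), and the highest, Bst2, ran from 0 to 75.46 FPKM in MII oocytes and from 0 to 60.87 FPKM in FGO. In the mRNA comparison 1 of 7 tested, the interferon receptor gene Ifnar1, rose by 1.39 (limma adjusted p = 0.0226), a share no higher than the 18.9% of all genes.

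Among 38 PRAME-like relatives of the Oog genes 11 entered the single-oocyte comparison, 2 at least 2-fold higher in MII and 2 at least 2-fold lower, again beside 25.8% and 31.8% of all genes. C87499 ran like Oog3, with 90.44 to 798.9 FPKM in MII oocytes against 0 to 27.32 FPKM in FGO, every MII oocyte above every FGO. Its tail measured 95.26 and 139.41 nt in KO against 96.73 nt in Het and 65.68 nt in FGO. Gm13084, which shares the 3 promoter blocks, averaged 44.57 ± 57.17 FPKM in MII oocytes (SD, n = 20) and 178.3 ± 137.7 FPKM in FGO (SD, n = 18), and Gm13023 156.6 ± 89.64 FPKM in MII (n = 20) and 101.7 ± 89.35 FPKM in FGO (n = 18). In mRNA of Btg4 KO over Het, 15 of the list were tested, 5 rose and 1 fell, beside 18.9% and 0.62% of all genes, with a median of 0.57 beside 0.14 over all genes. C87977, the other gene with the 3 blocks, rose by 2.09 (989 and 1180 FPKM in KO against 208 and 309 FPKM in Het, limma adjusted p = 0.00347), as did Pramef20 by 1.87, AA792892 by 1.70, C130073F10Rik by 1.63 and Gm13084 by 1.6, while Pramef17 fell by 1.47. In footprints 0 of 13 tested PRAME-like genes and 0 of 4 tested Oas genes were called by limma, with unadjusted p under 0.05 in 1 of each (Pramef12 and Oas1b).

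Of the 12 transcription factors and markers of the oocyte, taken as a check of the tissue, 11 were tested in KO over Het mRNA, of which 7 rose and 0 fell, beside 18.9% of all genes called higher and 0.62% called lower. The 5 with the largest rise were Figla by 3.53, Zp3 by 3.42, Zp2 by 2.84, Nobox by 2.80 and Lhx8 by 1.79. The 4 that did not pass were Gdf9 (log2 -0.29), Ddx4 (-0.49), Bmp15 (0.24) and Npm2 (0.68). In single oocytes 9 of 11 were at least 2-fold lower in MII and 1 was at least 2-fold higher, beside 31.8% and 25.8% of all genes compared.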

How the data were processed

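The authors deposited footprint and mRNA values as FPKM per gene and library; Cufflinks 2.2.1, STAR 2.5.3a, Bowtie2 2.2.2, Trim Galore 0.4.2, cutadapt 1.14 and the builds mm9 and hg19 are named per the submitters' processing notes, without roles. Per the labels' protocols, footprints came from RNase I digestion of lysates with cycloheximide, and mRNA from Smart-seq2. Tail lengths in nt were deposited per gene, with 0 for no value; the tail caller is not stated. FPKM values depend on each library's total, and no spike-in is named. The depth of mRNA and tail libraries is unknown; in single oocytes 77.2% of low values (below 12 reads) came out within 0.03 of whole reads, too few to recover counts.

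The 231 exact repeat rows of the Btg4 table were dropped, and 6 average or merged columns were not used. Differences used log2(FPKM + 1), which understates changes of low genes, a mean of at least 1 FPKM, and limma 3.58.1 (R 4.3.3, two-sided, trended eBayes) with Benjamini-Hochberg adjustment over all genes and a threshold of 0.05; efficiency was the interaction term. Tails were fitted in nt. Python 3.11.15 was used for tables and Biopython 1.88 for alignment. The scripts were tested on simulated data.

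Replicate numbers are shared by KO and Het. Deviations of same-numbered footprint libraries from their group means correlated at 0.255, 0.422 and 0.162 for numbers 1, 2 and 3, all over 0.1. The numbers were therefore taken to pair the footprint libraries, which comes from the data and not the labels. Same-numbered mRNA libraries correlated at 0.627, also over 0.1. With 2 mRNA libraries a group the deviations mirror each other, so both numbers give the same value. The main fits leave replicate number out, and fits with it (the replicate block) are given as an alternative. The members, lists and alternatives were chosen with earlier results of these data known. Named were all 8 members, Btg4, up to 5 list genes past the threshold per comparison or the 3 with most single-oocyte footprints, the 2 genes most like each member (mean of at least 10 FPKM), and a few list genes chosen after their values were seen (the low Oas genes, Pramef17, and C87499 tails). Promoters are RefSeq GRCm38.p6, matched by symbol for 6 of 8 members; Oas1d and Oas1e had none. The values of 1 gene of the lists are not reported here.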

Additional observations from a re-analysis of the deposited data

How the results depend on the processing

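In single oocytes all 8 members kept their direction under every alternative run, and 3 were at least 2-fold higher in MII in each. In KO over Het mRNA the count of members that rose was 4, but 1 with no filter on low values, 1 after median scaling, and 2 to 4 with 1 library left out; quantile normalization kept 4. With the replicate block (2 pairs of mRNA libraries, whose same-numbered deviations correlated at 0.627), 5 rose and 1 fell. Oog1 was the added rise (log2 0.84, limma adjusted p = 0.0205) and Oas1d the fall (log2 -0.94, adjusted p = 0.013). The calls of these 2 genes thus depended on the block. In footprints, where the numbers pair the libraries, the replicate block changed no member's call (241 genes higher and 26 lower, against 274 and 28). In efficiency it called no member (27 and 22 genes against 63 and 33). There Oog4, Oas1c and Oas1h, all lower in KO, came closest, with limma adjusted p of 0.0525, 0.0803 and 0.0947, and the other members were at 0.258 or above.

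Directions that reversed belonged to values not past the threshold, and the cause was not tested. With 1 library left out, mRNA of Oas1e ran from -0.25 to 0.24. Footprints ran from -1.76 to 0.07 (Oas1c), -0.25 to 0.04 (Oas1d), -0.98 to 0.15 (Oas1e), -2.47 to 3.46 (Oog1) and -0.43 to 1.43 (Oog2). Efficiency ran from -0.97 to 0.15 (Oas1e), -3.30 to 2.62 (Oog1, with 0.97 and 1.01 without Het 3 and Het 1 footprints) and -0.04 to 0.68 (Oog3). Quantile normalization gave 0.08 for Oas1d footprints and -0.01 for Oog3 efficiency, and median scaling -0.05 for Oog1 footprints.

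Calls over all genes moved more. In mRNA 1677 higher and 55 lower became 555 and 5 with no filter, 1018 and 841 after median scaling, 1104 and 698 after quantile normalization, 3033 and 1553 with the replicate block, and 1139 to 1621 and 22 to 270 with 1 library left out. Footprint calls of 274 higher became 177 with a pseudocount of 0.1, 145 (and 12 lower) with no filter, 100 after median scaling, 149 after quantile normalization, and 0 in either direction without both libraries numbered 2. Efficiency calls ran from 0 to 156 higher and 0 to 47 lower with 1 library left out. Efficiency calls became 27 higher and 12 lower with no filter. The 1 Het tail library, 2 mRNA libraries a group and unknown mRNA depth limit what these data can separate.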
